A study of Mus musculus with 11 samples.

Results

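The Notch pathway was examined through 10 of its genes in bulk gingival epithelium from langerin-DTR mice: the ligand genes Jag1, Jag2 and Dll1, the receptor genes Notch1, Notch2 and Notch3, the glycosyltransferase gene Lfng, the coactivator gene Maml1, and the target genes Hes1 and Hey1. They were chosen by symbol from the deposited table of normalized counts, and all 10 have values, out of 19170 genes with values. Langerin-DTR mice carry the diphtheria toxin receptor under control of langerin, a lectin of Langerhans cells, so that diphtheria toxin (DT) kills cells that use this gene. All 11 mice carried it. PBS was injected into 5 of them and DT into the other 6, at postnatal day 17, day 24 and day 31, and the epithelium was collected at 8 weeks. The comparison of DT with PBS asks how the adult epithelium differs after a passing loss of Langerhans cells early in life.

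In the Notch pathway a ligand on one cell binds a receptor on its neighbour, the receptor is cut by proteases, and its intracellular part moves to the nucleus, where it joins RBPJ and a Mastermind-like coactivator and switches on targets such as the HES and HEY repressors. Fringe enzymes, Lfng among them, add sugars to the receptor and change which ligands it answers to. In stratified epithelium the pathway is known for its part in the commitment of basal keratinocytes to differentiation.

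Reads on genes numbered between 17509328 and 24325513 per mouse, with medians of 20164510 after PBS and 20859076 after DT. The 10 epithelial markers, such as Krt5, Krt14 and Krt13, summed to between 2377861 and 2613359 normalized counts in every mouse, as the tissue label says. Cd207, which encodes langerin, had a mean of 23.9 normalized counts after PBS (10.0 to 43.0) and 18.4 after DT (15.8 to 21.6), a log2 fold change of -0.19 (limma adjusted p = 0.853), so a difference in this gene was not detectable. By flow cytometry in the study, Langerhans cells were absent within the period of the injections and had returned by the age of collection. Cd207 at that age is therefore no check of the depletion. PBS 3 and PBS 5, at 17.2 and 20.9, lay far from the rest of their group, at -13 to -11.9, on a first principal component that held 36% of the variance of 500 genes, while the DT-treated mice lay from -9.09 to 10.5. Results that rest on this pair are given with and without it. Differences were tested with limma across all genes with values, on log2(normalized count + 1), and the Benjamini-Hochberg adjusted p had to be under 0.1. In bulk tissue, fewer cells of a type and less RNA per cell cannot be told apart.

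Most of the Notch machinery was present at clear levels. Compared per kilobase of annotated exon, Hes1 (650 ± 62.2, SD, n = 5) and Notch3 (649 ± 33.3) had the highest levels in PBS-treated mice, and their ranges overlapped. Jag1 (451 ± 21.9) and Notch1 (433 ± 36.4 per kilobase) came next and overlapped each other, followed by Notch2 (320 ± 42.6) and Jag2 (297 ± 42.9), which overlapped as well. Below them Maml1 (166 ± 7.43), Lfng (91.4 ± 5.81), Dll1 (50.2 ± 9.27) and Hey1 (5.72 ± 0.882) came in an order in which no range over the 5 mice met its neighbour's. The order depends on the length used. Notch1 has 14232 bases of annotated exon but 9488 bases in its longest coding transcript. Per kilobase of the longest coding transcript, Hes1 (902) was highest and no longer level with Notch3 (655). Notch1 reached 650 by this length, above 469 for Jag1, and Jag2 (405) was then above Notch2 (329).

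**Figure D1:**
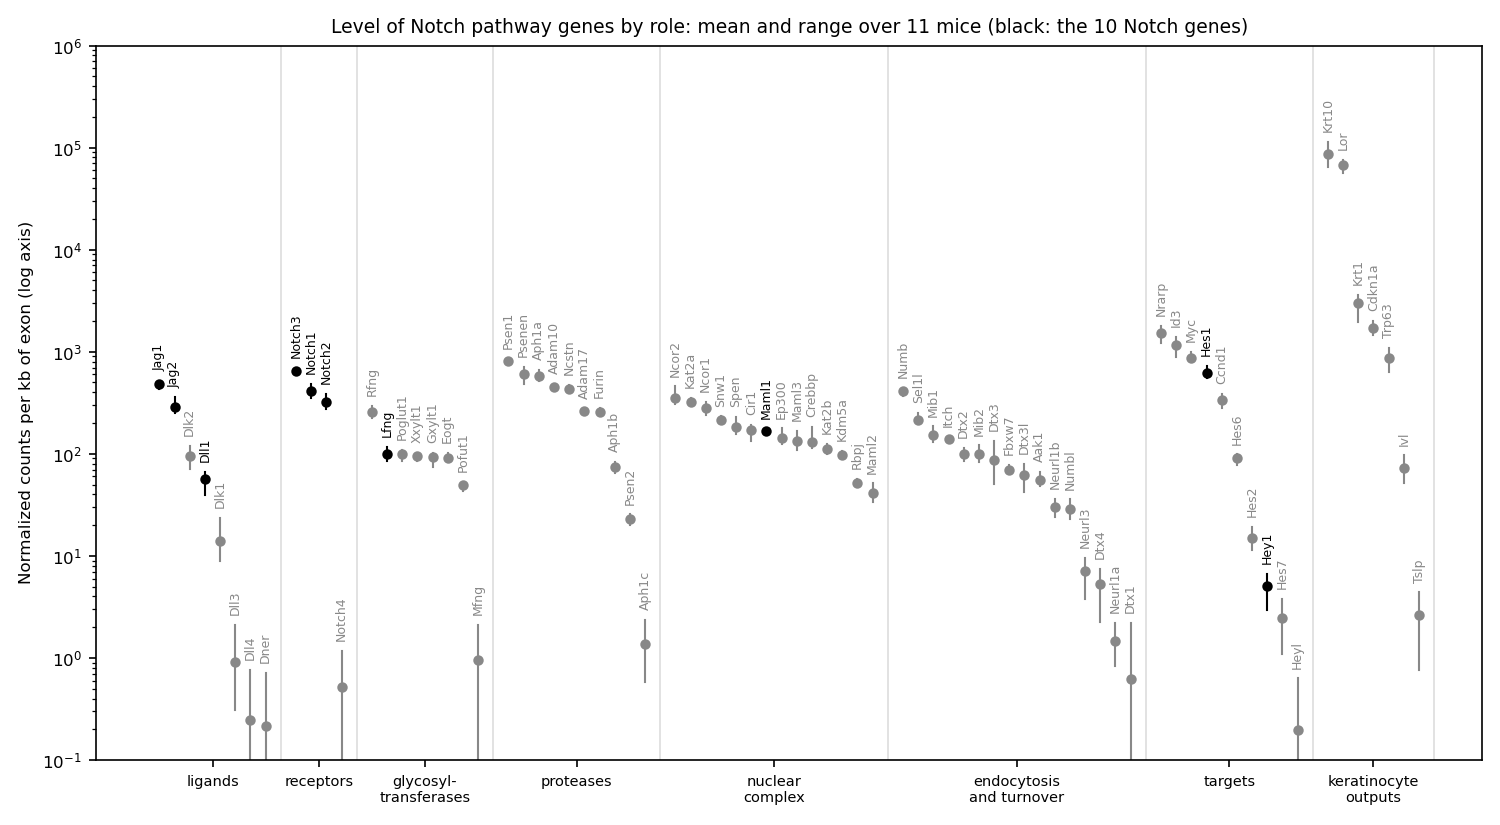
Normalized counts per kilobase of annotated exon (log axis) for the 10 Notch genes (black) and 67 other pathway genes (grey), grouped by role. Points are means over 11 mice and lines the range, with lines that reach 0 ending at the lower edge. Jag1, Jag2, Notch1, Notch2 and Notch3 stand near the top of their roles, and Dll4, Notch4 and Heyl near the bottom.

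Jag1 made up the largest part of the ligand transcripts, 56.7% ± 3.42 (SD, n = 5) of the summed per-kilobase level of the 3 ligand genes after PBS, against 37.1% ± 3.33 for Jag2 and 6.25% ± 0.791 for Dll1. After DT the shares were 59.3% ± 1.81, 33.5% ± 1.97 and 7.21% ± 0.534 (SD, n = 6). Among the receptors Notch3 held 46.3% ± 1.04, Notch1 30.9% ± 1.75 and Notch2 22.8% ± 1.68 after PBS, and 47.8% ± 1.23, 28.7% ± 1.24 and 23.5% ± 1.10 after DT. These shares depend on the length used. By the longest coding transcript, Jag1 (50.4% ± 3.48) and Jag2 (43.3% ± 3.46) lay closer together after PBS. By the same length, Notch1 (39.8% ± 1.95) and Notch3 (40.1% ± 1.04) had nearly equal shares after PBS.

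Across the pathway the differences after DT were small, and 0 of the 10 genes passed the threshold, which 0.558% of all genes tested did (107 of 19170). At an unadjusted p under 0.05, Jag1, Dll1 and Lfng were higher and Hes1 was lower, that is 3 and 1 of 10 genes, where 5.31% of all genes were higher and 6.19% lower at the same p. The median log2 fold change of the 10 genes was -0.01, with 5 above 0 and 5 below, beside a median of -0.01 over all genes. The ranges of PBS-treated and DT-treated mice overlapped in all 10 genes. Of the 13477 genes whose mean reached 10 normalized counts, 2.11% had ranges that did not overlap.

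**Figure D2:**
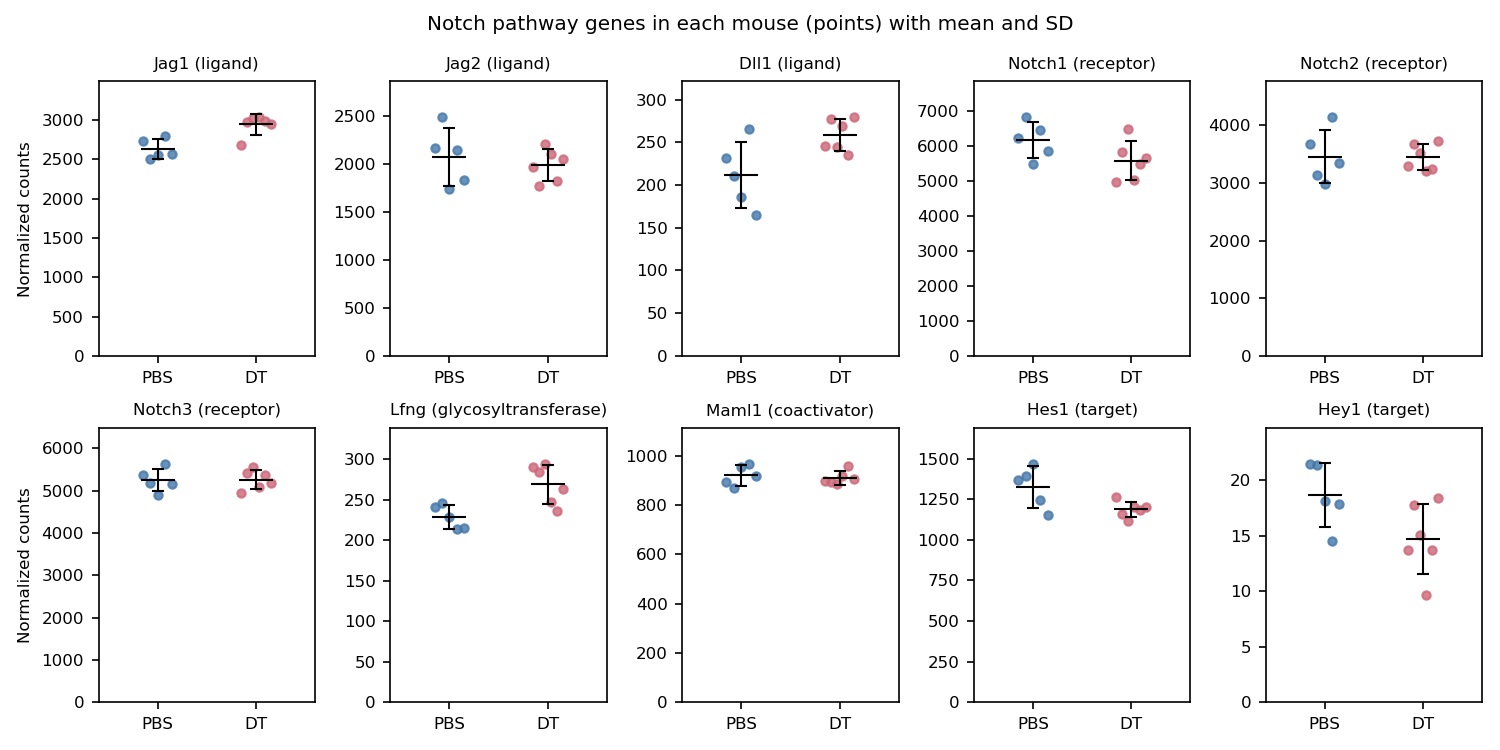
Normalized counts of each Notch gene in the 5 PBS-treated (blue) and 6 DT-treated (red) mice, with the mean and SD of each group (black) and axes that start at 0. In Jag1 and Lfng 5 of 6 DT-treated mice lie above every PBS-treated mouse, while Notch2, Notch3 and Maml1 overlap throughout.

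The ligand Jag1 (ENSMUSG00000027276, chromosome 2, 137081456 to 137116644, minus strand, GRCm38 here and for all genes) encodes a Jagged ligand, bound to the membrane of the sending cell. Its normalized counts were 2732, 2499, 2553, 2798 and 2567 in the PBS-treated mice, in order of their number, with a lowest value of 2686, a median of 2980 and a highest value of 3034 after DT. All DT-treated mice but DT 1 lay above the highest PBS-treated mouse. The log2 fold change was 0.16 (standard error, SE, 0.048, and 95% interval 0.06 to 0.26), and it did not pass the threshold (limma adjusted p = 0.215, unadjusted 0.00415). It was between 0.14 and 0.19 in every other fit made, with adjusted p-values from 0.129 to 0.627.

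Dll1 (ENSMUSG00000014773, chromosome 17, 15367354 to 15376872, minus strand), the Delta-type ligand of the set, had 232, 211, 186, 265 and 165 normalized counts in the PBS-treated mice and from 235 to 279 after DT, with a median of 257. Every DT-treated mouse exceeded the PBS mean of 212 ± 39.1 (SD, n = 5), and 3 of 6 exceeded the highest PBS-treated mouse. The log2 fold change of 0.30 (SE 0.107, 95% interval 0.08 to 0.53) was the highest estimate among the 10 genes and missed the threshold (limma adjusted p = 0.286). PBS 3 and PBS 5 were the 2 lowest mice, and without them the log2 fold change was 0.13 (limma adjusted p = 0.417).

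Jag2 (ENSMUSG00000002799, chromosome 12, 112907819 to 112929776, minus strand), the second Jagged ligand, had 2160, 2485, 1733, 2143 and 1829 normalized counts after PBS and from 1768 to 2207 after DT, with a median of 2004. The DT values lay wholly within the PBS range. Its log2 fold change was -0.05 (SE 0.085, 95% interval -0.23 to 0.13, limma adjusted p = 0.860). PBS 3 and PBS 5 were the lowest of the PBS-treated mice, and without them the log2 fold change was -0.19 (limma adjusted p = 0.136).

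Of the receptors, which all carry an extracellular ligand-binding part and a cleavable intracellular part, Notch1 had the lowest estimate. Notch1 (ENSMUSG00000026923, chromosome 2, 26457903 to 26516663, minus strand) had 6234, 6814, 5484, 6448 and 5846 normalized counts after PBS, and a lowest value of 4963, a median of 5572 and a highest of 6466 after DT. All DT-treated mice but DT 3 were below the PBS mean of 6165, although the groups overlapped. Its log2 fold change was -0.15 (SE 0.072, 95% interval -0.30 to 0.0046, limma adjusted p = 0.444).

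The Notch1 value depended on PBS 3 and PBS 5, the lowest PBS-treated mice in this gene too. Without both of them it was -0.23 (SE 0.072) and passed the threshold (limma adjusted p = 0.0787). In that fit of 3 against 6 mice, however, 10.3% of all genes passed (1967 of 19170), and the pair was left out after its values had been seen, so its p-values only describe the remaining mice. Without 1 mouse at a time Notch1 did not pass in any fit.

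Notch2 (ENSMUSG00000027878, chromosome 3, 98013527 to 98150361, plus strand) had 3666, 3131, 2988, 4136 and 3337 normalized counts after PBS and from 3211 to 3723 after DT, with a median of 3407. Notch3 (ENSMUSG00000038146, chromosome 17, 32120820 to 32166852, minus strand) had 5363, 5180, 4907, 5635 and 5167 after PBS and from 4939 to 5559 after DT, with a median of 5284. In both receptors the DT values lay within the PBS range. The 95% intervals of the log2 fold change were -0.16 to 0.16 for Notch2 and -0.10 to 0.11 for Notch3 (limma adjusted p = 0.989 for each), and the sign of each estimate changed between fits.

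Lfng (ENSMUSG00000029570, chromosome 5, 140607320 to 140615545, plus strand), the lunatic fringe enzyme that modifies Notch receptors in the Golgi, had 241, 246, 228, 214 and 215 normalized counts after PBS and a lowest value of 236, a median of 273 and a highest of 294 after DT. All DT-treated mice but DT 5 were above the highest PBS-treated mouse. Its log2 fold change was 0.23 (SE 0.078, 95% interval 0.06 to 0.40, limma adjusted p = 0.269), and 0.20 without PBS 3 and PBS 5 (limma adjusted p = 0.208). Its spread between PBS-treated mice, a coefficient of variation of 6.36%, was near the 6.66% that counting alone gives at this depth, while after DT it was 8.93% against 6.06%.

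Of the 10 genes, 8 have a promoter in the RefSeq table for GRCm38.p6, with 9 start sites. Hes1 and Hey1 have none there and were not searched. The 250 bases before each start were searched on both strands for GTGGGAA, a form of the sequence that RBPJ binds. It was found in Lfng alone among them, and in 5.42% of all 32851 promoters searched. The stretch around it is shown because it is the single match among the 8 Notch genes searched. It is chr5:140607172-140607298, plus strand, from 169 to 43 bases before the start, with the motif in capitals. A second motif, the E-box CACGTG, which 6.02% of promoters hold, overlaps it by its last letters. A match is a description of the letters and not a measurement of binding.
Lfng: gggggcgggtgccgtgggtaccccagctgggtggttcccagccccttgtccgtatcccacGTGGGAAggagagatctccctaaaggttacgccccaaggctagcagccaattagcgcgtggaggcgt

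Maml1 (ENSMUSG00000050567, chromosome 11, 50255634 to 50292311, minus strand), a Mastermind-like coactivator, was among the steadiest of the 10 genes. It had 892, 870, 955, 967 and 918 normalized counts after PBS and from 883 to 960 after DT, with a median of 901, so the DT values lay within the PBS range. The coefficients of variation were 4.46% and 2.99%, beside 3.32% and 3.30% from counting alone. The log2 fold change was -0.02 (SE 0.048, 95% interval -0.12 to 0.09, limma adjusted p = 0.932).

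Hes1 (ENSMUSG00000022528, chromosome 16, 30064384 to 30067796, plus strand), a repressor that is a direct target of Notch signalling in many tissues, had 1369, 1394, 1467, 1242 and 1151 normalized counts after PBS and a lowest value of 1115, a median of 1191 and a highest of 1261 after DT. Every DT-treated mouse was below the PBS mean of 1325 ± 127 (SD, n = 5), yet only DT 3 was below the lowest PBS-treated mouse. Its log2 fold change was -0.15 (SE 0.062, 95% interval -0.29 to -0.02, limma adjusted p = 0.344). Without PBS 3 and PBS 5, the highest and the lowest of the group, it was -0.17 and passed the threshold (limma adjusted p = 0.0855), with the 10.3% of all genes that passed in that fit. In every other fit it stayed below 0 and did not pass.

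Hey1 (ENSMUSG00000040289, chromosome 3, 8663359 to 8667256, minus strand), the second target, was at low counts. It had 21.5, 21.4, 18.1, 14.6 and 17.8 normalized counts after PBS and from 9.66 to 18.4 after DT, with a median of 14.4. The log2 fold change of -0.34 had a 95% interval from -0.80 to 0.12 (limma adjusted p = 0.583), and the spread between mice (15.4% and 21.5%) was below the counting error at this depth (23.4% and 25.7%). A difference of this size in Hey1 was not detectable.

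**Figure D3:**
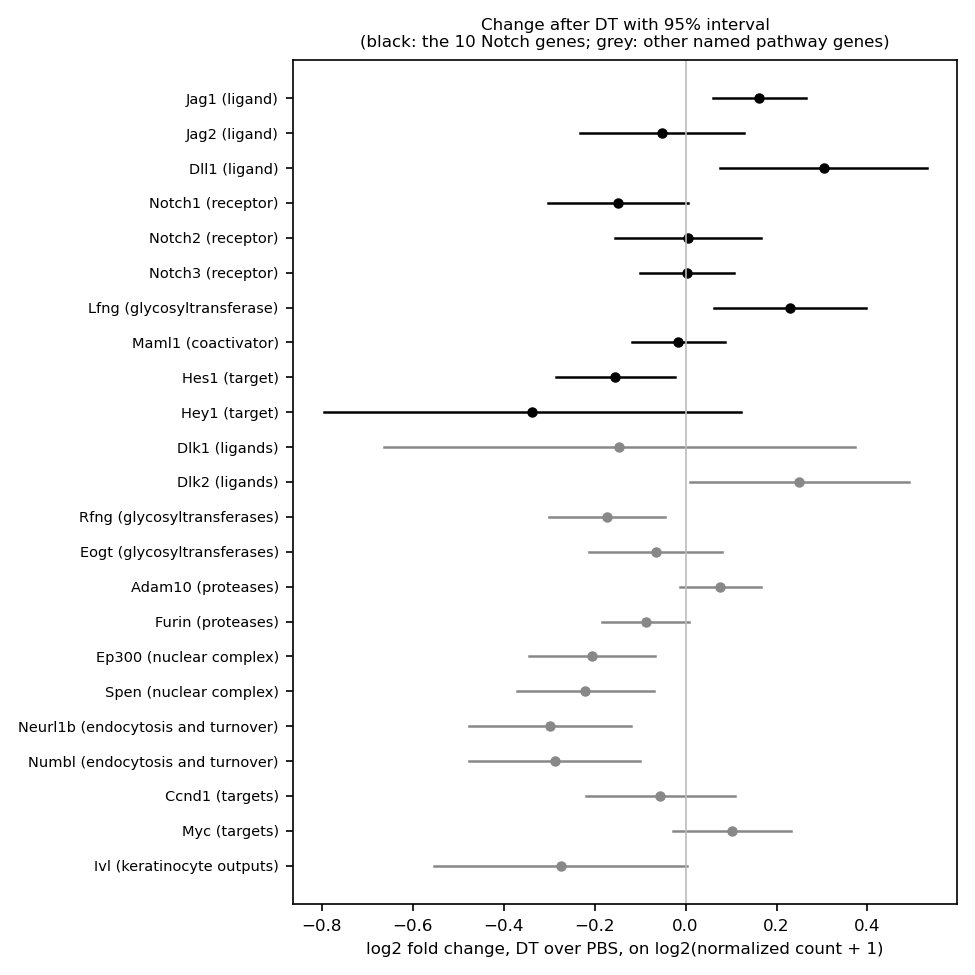
Estimated log2 fold change, DT over PBS, with its 95% interval from limma for the 10 Notch genes (black) and 13 other pathway genes (grey). The intervals of Jag1, Dll1 and Lfng lie above 0 and that of Hes1 below 0, while those of Jag2, Notch1, Notch2, Notch3, Maml1 and Hey1 include 0.

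The wider pathway was examined with a list of 71 further genes, of which 68 have values (Hes3, Hes5 and Hey2 are listed without one) and 58 a mean of 10 normalized counts or more. None of the 68 passed the threshold in limma, the smallest adjusted p being 0.196. At an unadjusted p under 0.05, 2 were higher (2.94%) and 9 lower (13.2%), beside 5.31% and 6.19% of all genes. The median log2 fold change of the list was -0.03, with 28 above 0 and 40 below.

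Most genes of the nuclear complex had estimates below 0. Of 13, which include RBPJ, Mastermind-like coactivators, acetyltransferases and corepressors, 11 had an estimate below 0, 4 of them at an unadjusted p under 0.05 (Ep300, Spen, Maml2 and Ncor1), and the median was -0.07. Of all genes, 6.19% were lower at that p and 47.3% had an estimate above 0. Ep300, a histone acetyltransferase, was at 2224 ± 230 normalized counts in PBS-treated mice (SD, n = 5) and 1923 ± 110 in DT-treated mice (SD, n = 6), a log2 fold change of -0.21 (SE 0.065, limma adjusted p = 0.236). Spen, a corepressor that binds RBPJ, had 2790 ± 340 and 2384 ± 137, a log2 fold change of -0.22 (limma adjusted p = 0.242). Both are coregulators of many other factors. In Ep300, Spen and Ncor1, PBS 4 and then PBS 1 had the highest values after PBS, while in Maml2 PBS 1 was lowest. Without 1 mouse at a time the estimate ran from -0.25 to -0.16 in Ep300 and from -0.26 to -0.16 in Spen. Both were weakest without PBS 4. The genes were measured in the same mice, so the counts of genes above are not separate observations. Rbpj itself had a log2 fold change of -0.08 (limma adjusted p = 0.601).

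Genes of ligand endocytosis and receptor turnover had estimates in both directions. Of 16, 5 were above 0 and 11 below, with a median of -0.06, and 1 was higher and 3 lower at an unadjusted p under 0.05, beside 5.31% and 6.19% of all genes. Neurl1b, a ubiquitin ligase of Notch ligands, had 211 ± 15.3 and 172 ± 15.7 normalized counts, a log2 fold change of -0.30 (SE 0.084, limma adjusted p = 0.196), with 5 of 6 DT-treated mice below every PBS-treated mouse. Numbl had 280 ± 27.5 and 229 ± 23.2, a log2 fold change of -0.29 (limma adjusted p = 0.224). Its relative Numb, an adaptor that limits Notch, was the only 1 of the 58 genes of the list with a mean of 10 or more whose groups did not overlap (2.11% of all such genes did not), at 1442 to 1601 normalized counts after PBS and 1602 to 1736 after DT, a log2 fold change of 0.13 (limma adjusted p = 0.289). Numb was named after its values were seen, and the gap between the groups was narrow.

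Among 7 other glycosyltransferases, radical fringe, Rfng, had an estimate opposite to that of Lfng. It had 684 ± 41.7 normalized counts after PBS and 606 ± 38.4 after DT, a log2 fold change of -0.17 (SE 0.060, limma adjusted p = 0.278), and 5 of 6 DT-treated mice were below the lowest PBS-treated mouse. The third fringe gene, Mfng, was at low counts, with 2.26 to 6.04 normalized counts after PBS and 0 to 3.5 after DT, a log2 fold change of -1.33 (SE 0.398, limma adjusted p = 0.215), and 5 of 6 DT-treated mice were below the lowest PBS-treated mouse. Mfng and Rfng were the 2 genes of this role at an unadjusted p under 0.05, both lower, beside 6.19% of all genes. Eogt, which adds N-acetylglucosamine to Notch, had a log2 fold change of -0.07 (limma adjusted p = 0.770). Of the 10 proteases 0 reached an unadjusted p under 0.05. Adam10, which makes the first ligand-induced cut, had a log2 fold change of 0.08, and Furin, which matures the receptor, one of -0.09 (limma adjusted p = 0.508 and 0.468).

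Of the other ligands, Dlk2 had a log2 fold change of 0.25 (limma adjusted p = 0.412), which was 0.07 without PBS 3 and PBS 5, and Dlk1 one of -0.15 (limma adjusted p = 0.865), both being non-canonical members of the family. The ligand genes Dll3 and Dll4 and the receptor gene Notch4, which is best known from endothelium, were near 0, with means of 2.25, 1.35 and 3.44 normalized counts after PBS. None of the 8 further targets with values and none of the 8 keratinocyte genes downstream of Notch reached an unadjusted p under 0.05. Myc and Ccnd1 had log2 fold changes of 0.10 and -0.06 (limma adjusted p = 0.550 and 0.838). Ivl, a protein of the cornified envelope, had 152 ± 20.2 and 127 ± 25.4 normalized counts, a log2 fold change of -0.27 (limma adjusted p = 0.438).

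Without PBS 3 and PBS 5, a pair left out after its values had been seen, 10.3% of all genes passed, and 5 of the 68 did. This share is no larger than that of all genes. All 5 were lower after DT: Rfng (log2 fold change -0.23, limma adjusted p = 0.0476), Ep300 (-0.25, 0.0513), Spen (-0.30, 0.0269), Mib1 (-0.24, 0.0669) and Dtx3 (-0.67, 0.0103). Mib1 and Dtx3 are ubiquitin ligases of the pathway, named here after their values were seen. In the fit of all mice Dtx3 had a log2 fold change of -0.19 (limma adjusted p = 0.802).

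Notch genes are also used by other cells that an epithelial sheet can hold, so marker lists were set beside them. Endothelial markers summed to 63.0 to 108 normalized counts after PBS and 54.4 to 128 after DT over 7 genes, with 3 of 7 above 0 in log2 fold change and 4 below, most of it Pecam1 (mean 70.3 after PBS), and Kdr, Tek and Emcn had means of 2.52, 1.78 and 1.77 normalized counts after PBS. Mural cell markers summed to 585 to 787 after PBS and 476 to 638 after DT, 3 of 6 with estimates above 0 and 3 below. Nearly all of the sum was Cspg4, with a log2 fold change of -0.28 (limma adjusted p = 0.272, unadjusted 0.0103), while Pdgfrb, Myh11 and Des, the 3 above 0, had means of 0.194, 1.02 and 1.83 after PBS. All 7 Langerhans cell markers had lower estimates after DT (log2 fold changes from -0.53 to -0.19, 0 past the threshold, smallest limma adjusted p 0.313) and summed to 2110 to 4937 and 1551 to 2903 normalized counts. Of 12 immediate early genes, 12 had higher estimates after DT and 10 passed the threshold, which 0.558% of all genes did. The part of any of these markers in the Notch values was not tested.

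How the 10 genes varied together was taken from their residuals, each log2 value minus its group mean, which hold nothing of the difference between DT and PBS. Notch3 had the highest correlations, with a Pearson r of 0.77 with Notch1, 0.74 with Notch2 and 0.76 with Jag1 over 11 mice. The exact permutation p within groups was 0.00938, 0.0164 and 0.00857, and 0.141, 0.185 and 0.141 after adjustment over 45 pairs. Spearman's rho was 0.82, 0.64 and 0.64 (exact permutation, adjusted p = 0.159, 0.445 and 0.445). None of these passed the threshold of 0.05. Without the 2 mice farthest from the median, r was 0.64, 0.46 and 0.75. By group, r was 0.62, 0.97 and 0.84 in the PBS-treated mice and 0.91, 0.40 and 0.68 in the DT-treated mice.

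Lfng and Maml1 had the lowest correlation, with r = -0.79 (exact permutation p = 0.00196, adjusted 0.0880) and rho = -0.82 (exact permutation p = 0.00088, adjusted 0.0396), so that the pair passed the threshold by rank and not by r. The correlation had the same sign in both groups (r = -0.79 in the 5 PBS-treated mice and -0.91 in the 6 DT-treated mice) and was -0.69 without DT 3 and DT 5. Of the 45 pairs, 4 had an unadjusted exact permutation p under 0.05 by r and 0 passed after adjustment, except without PBS 2 or without PBS 3, when 1 pair passed, and without PBS 5 or without PBS 3 and PBS 5, when 2 did.

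**Figure D4:**
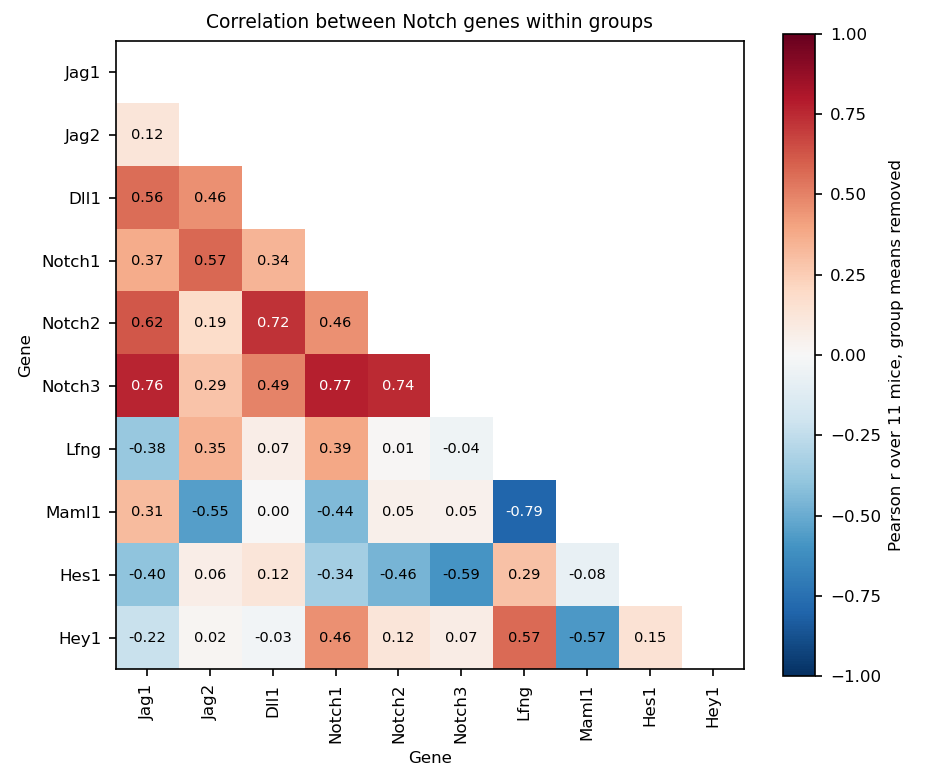
Pearson r between each pair of the 10 Notch genes over 11 mice, on log2(normalized count + 1) minus the group mean, from -1 (blue) to 1 (red). Notch3 has r above 0.7 with Jag1, Notch1 and Notch2, and Lfng with Maml1 has the lowest value, -0.79.

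For the 4 Notch genes with the smallest p, the genes whose residuals followed theirs most closely over the 11 mice, out of the 13477 genes of sufficient mean, were Cenpj (Pearson r = 0.92) and Cyp2u1 (0.91) for Jag1, 1810024B03Rik (0.97) and Selenoo (0.89) for Lfng, Atg9b (0.97) and Rnf123 (0.96) for Dll1, and Itm2a (0.89) and F2rl1 (0.88) for Hes1. These are the highest of many correlations, were not tested and share the depth and scaling of the same libraries.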

How the data were processed

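Epithelium from the gingiva of 11 langerin-DTR mice, 5 given PBS and 6 given DT, had been sequenced as stranded, poly(A)-selected mRNA libraries. The methods, however, cite the user guide of a different library kit, QuantSeq, for the processing of the reads. Levels per kilobase assume reads along the whole transcript, which was not tested. The authors trimmed the reads, aligned them with TopHat2, counted them per gene with HTSeq and scaled each mouse with a size factor from DESeq2, and the deposited values are therefore normalized counts and not counts, with 36244 of 55414 listed genes given without a value. The submitters' processing notes name cutadapt 2.10, TopHat2 2.1.1, HTSeq 2.01, DESeq2 1.36.0 and GRCm39, whereas the methods name GRCm38, so the build of the deposited table is uncertain. Positions and exon lengths come from GENCODE mouse release 21 on GRCm38, in which 19117 of the 19170 genes with values were found by identifier, and strand was taken from it.

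Low values were whole multiples of a single read in each mouse (tolerance 0.05 read), which gave the reads per mouse. A gene with few counts, such as Hey1, has a large counting error. The main test was limma 3.58.1 in R 4.3.3 (moderated linear model, variance trend) on values of log2(normalized count + 1), without covariates and with Benjamini-Hochberg adjustment over 19170 genes (threshold 0.1), so that a fold change understates that of low genes. Intervals are at 95%. The labels call the samples replicates of each treatment. The limma p-values set the difference between DT and PBS against the spread between these samples within each group. Correlations within groups were tested over 86400 orders of the mice (two-sided, exact). The limma fit and the correlation test were tested on simulated data. Planned tests with edgeR and DESeq2 were not run. The table marks missing values and holds normalized values, which were not accepted as counts, so the reads recovered from it served for depth alone.

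All 10 genes are named, and of the wider list, within each role, the 2 genes with the smallest p and a mean of at least 10 normalized counts. Numb, Mib1, Dtx3, Maml2, Ncor1, Mfng and Rbpj and the genes near 0 are exceptions, named after their values were seen. Of the genes so chosen 1 is counted in its list but is not reported here or drawn in the figures. The members and lists were chosen with earlier results of these data known. Alternatives were pseudocounts of 0.5 and 5, only genes with a mean of at least 10, TMM scaling, array weights, replicate blocks, leaving out each mouse, and, added after seeing the data, leaving out both PBS 3 and PBS 5. Whether the numbers in the titles pair mice is not known. The correlations of same-numbered residuals ran from -0.233 to 0.324. They were not compared with those of differently numbered mice, so they do not settle it.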

Additional observations from a re-analysis of the deposited data

Results flagged for a closer look

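Jag1 in DT 1 was at 2685.6 normalized counts, apart from the other DT-treated mice, at 2951.7 to 3033.8, with a gap of 0.764 of the range of the group. It was the only such value among 48 groups of mice examined, where chance alone marks about 1 in 20. Without DT 1 the log2 fold change of Jag1 was 0.19, the highest of its alternative fits, and did not pass the threshold.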

How the results depend on the processing

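None of the 10 Notch genes and none of the 68 other pathway genes passed the threshold in any of the other fits planned. Leaving out PBS 3 and PBS 5, chosen after seeing the data, gave 1967 genes of 19170 past the threshold, 2 of the 10 (Notch1 and Hes1), 5 of the 68 and 2 correlated pairs. Array weights gave 189 genes. With a replicate block by title number 35 genes passed and by library number 0 (1404 at an unadjusted p under 0.05 in limma, against 2204), and the numbers share no known batch. DT 6 has no partner by title number and DT 5 none by library number. The fold changes with these blocks are therefore those without DT 6 and without DT 5, while their errors and p-values differ. Leaving out 1 mouse gave 27 to 259 genes and 0 to 2 pairs. The cause of these shifts was not tested. The sign of 5 small estimates depended on the fit. Jag2 ran from -0.11 to 0.016, Notch2 from -0.045 to 0.072, Notch3 from -0.021 to 0.029, Maml1 from -0.036 to 0.0021 and Dlk1 from -0.32 to 0.011 without 1 mouse at a time. Notch2 was at -0.018 with the title block and -0.074 without PBS 3 and PBS 5, Notch3 at -0.0036 with the library block and -0.036 without that pair, and Maml1 at 0.0011 without it. Jag1, Dll1, Lfng, Hes1, Notch1 and Hey1 kept the sign of their estimate in every alternative. TMM scaling moved the median of all genes by 0.0038 on the log2 scale. Counting error limits what can be said of Hey1, and 5 and 6 mice limit changes of the size seen in Jag1.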
